A study of Mus musculus with 6 samples.

Results

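The genes described here are 10 components of innate pattern recognition. They include the cytosolic RNA sensors Ifih1 and Dhx58, the adaptor Mavs, and the kinases Tbk1 and Eif2ak2. The others are the Toll-like receptors Tlr2, Tlr3 and Tlr4, and the receptor adaptors Myd88 and Ticam1. The genes were chosen by symbol, with earlier results of these data known. All 10, each protein-coding, were found once among the 49315 genes of the count table. RNA was sequenced from bEND.3 cells, an immortalized mouse brain endothelial line, after Lipofectamine transfection with an antisense LNA GapmeR against the long non-coding RNA Gm39822 (4 libraries, GapmeR 1 to 4) or a negative control antisense LNA GapmeR (2 libraries, Negative Control 1 and 2), both at 100 nM. A GapmeR is a short oligonucleotide with a DNA core, through which RNase H cleaves the paired RNA, so all libraries, controls included, come from cells that received a transfected nucleic acid, and untreated cells were not analysed here. One cell line was used, and the labels do not say whether the libraries came from separate cultures, so p-values measure the spread between these libraries.

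Cells detect foreign nucleic acid in the cytosol and in endosomes. MDA5 (Ifih1) binds long double-stranded RNA and LGP2 (Dhx58) modulates it, and both act ahead of MAVS on the mitochondrial membrane, which engages TBK1 to phosphorylate the transcription factor IRF3. Among Toll-like receptors, TLR3 recognizes double-stranded RNA in endosomes and signals through TRIF (Ticam1), TLR2 recognizes bacterial lipoproteins at the cell surface and signals through MyD88, and TLR4 recognizes lipopolysaccharide and uses both adaptors. Brain endothelial cells are known to express several of these receptors, and many of the genes are themselves inducible by interferon.

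All 10 genes passed the filter on low counts. After Gm39822 GapmeR treatment, 7 of them were lower than in the negative controls at an adjusted p-value under 0.05, and 3 did not pass. The 7 were all 3 Toll-like receptors, both of their adaptors, Ifih1 and Mavs. Tlr3 fell the most, to 0.574 times the control level, Ticam1 was at 0.637 times and Myd88 at 0.670 times, whereas Dhx58, Tbk1 and Eif2ak2 lay within 1.08 times of it. Over the whole table, 45.3% of the 18234 genes tested were called, 20.0% lower and 25.4% higher (Benjamini-Hochberg adjusted p-values of the quasi-likelihood F-test in edgeR). None of the 10 was called higher by edgeR as fitted above, DESeq2 or limma-voom. At an unadjusted p-value under 0.05, 0 were higher by any of these. With scaling by library size alone, edgeR called 2 of the 10 higher, beside 6106 of all 18234 genes tested. The median log2 fold change of the 10 genes was -0.43, beside 0.025 over all genes tested. As the 10 were chosen with earlier results known, these comparisons with all genes are descriptive. With a 1.5-fold threshold added, only Tlr3 and Ticam1 remained among the lower genes, where 7.62% of all genes were lower and 17.8% higher by that threshold. Myd88 lay just outside it.

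Total counts were 29261988 to 37117934 per library, and the targeted transcript Gm39822 had 1 to 4 counts in the GapmeR libraries against 61 and 56 in the controls. The values are read counts, given in CPM, the usual per-library scaling of counts to a fixed total, with library totals adjusted by edgeR's TMM method on genes reaching 5 counts in 2 or more libraries. Scaling by library size alone moves the log2 fold change of all genes up by 0.148 at the median and turns the share of higher calls from 55.9% to 74.1%, so each direction reported is relative to that choice. All 10 endothelial markers were detected, with summed levels of 8729 to 9907 CPM after GapmeR treatment and 10640 and 10200 CPM in the controls, 2 of them called higher and 5 lower. All 14 macrophage markers had counts, and their sum was 229, 210, 362 and 394 CPM in GapmeR 1 to 4 against 178 and 172 CPM in the controls. Of these, 2 were called higher, Cd68 and Mrc1, and none lower. Csf1r, which defines the lineage, was not called (edgeR adjusted p = 0.251). It had 288 to 833 counts after GapmeR treatment and 201 and 218 in the controls. The sum over 10 fibroblast and mural markers was 23.8 to 86.6 CPM against 16.3 and 17.8 CPM, highest in GapmeR 3. In that library Col1a1 had 1179 counts and Col1a2 781, against 46 to 148 and 44 to 99 in the other libraries. Of the 10 markers, 2 were called higher and none lower. These were the smooth muscle genes Myh11 and Tagln. Myh11 had 182 to 210 counts in the GapmeR libraries against 10 and 8 (log2 fold change 4.19, edgeR adjusted p = 9.94e-10). Tagln had 57 to 86 counts against 8 and 24. The part of these markers in the results was not tested. Values without GapmeR 3 and GapmeR 4 do not test it, because the macrophage sum in GapmeR 1 and GapmeR 2 was also above both controls. In these 2 libraries the largest parts of the sum were Cd68 and Lyz2. Cd68 was at 123 and 113 CPM against 87.2 and 89.5 CPM in the controls. Lyz2 was at 79.1 and 73.5 CPM against 68.8 and 62.1 CPM, and Csf1r at 9.33 and 7.40 CPM against 7.34 and 6.83 CPM. In bulk RNA, fewer cells expressing a gene and less of its RNA per cell cannot be told apart.

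**Figure D1:**
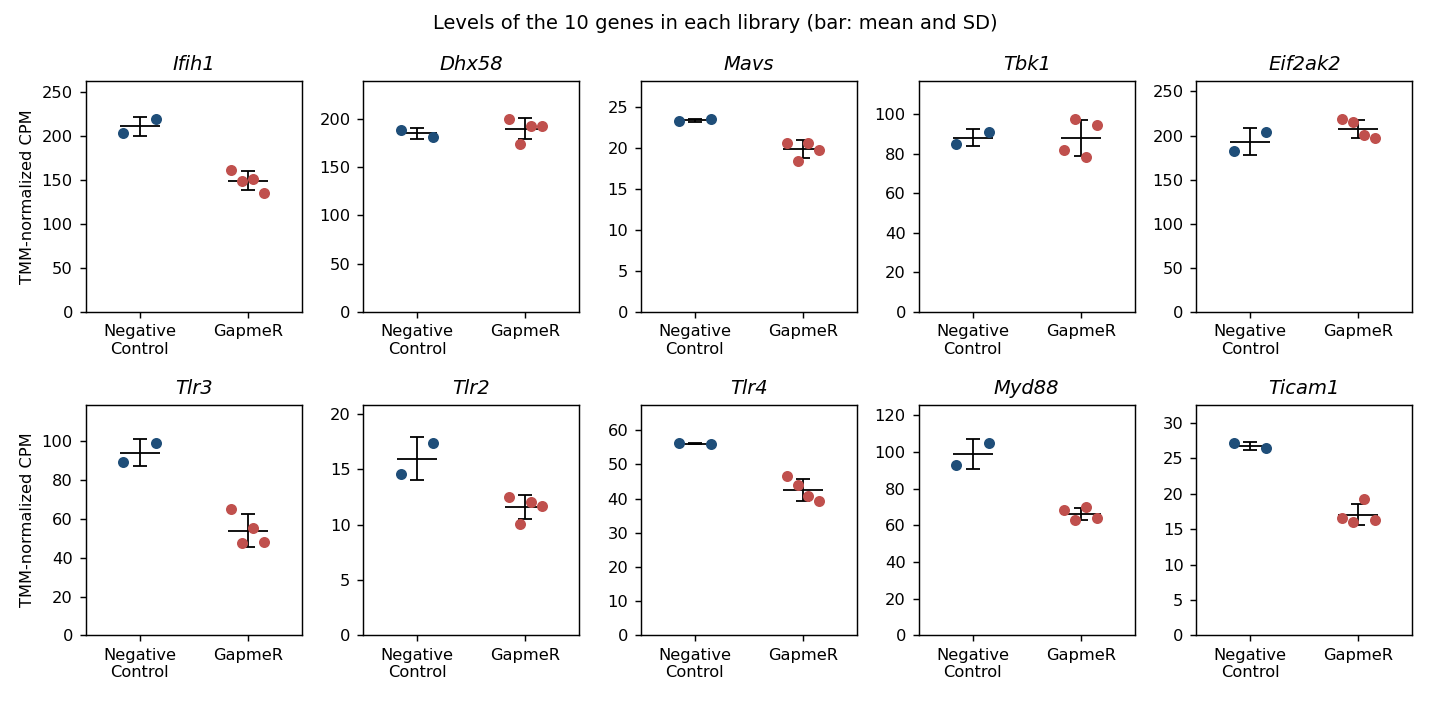
TMM-normalized CPM (vertical axis, from 0) of each of the 10 genes in the 2 Negative Control and 4 GapmeR libraries, with the mean and SD of each group as bars. In 7 panels the GapmeR points lie below both controls, and in the panels of Dhx58, Tbk1 and Eif2ak2 the groups overlap.

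All 7 lower genes had every GapmeR library below both controls, and the other 3 overlapped. Over all genes tested, 27.3% had every GapmeR library below both controls and 31.9% above both. For each of the 7, a 2-sided exact permutation test over the 15 possible assignments of the labels gave p = 0.0667, the smallest that 4 against 2 can give, so this test cannot reach 0.05.

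Because many of these genes respond to interferon, promoters from RefSeq (mm10, 250 bases before to 50 after an annotated start) were searched on both strands for the core of the interferon-stimulated response element, GAAANNGAAA. Of the 10 genes, 8 had a promoter in the table (not Dhx58 and Tlr4), and for Tlr3 and Tlr2 the start used lies 695 and 216 bases inside the gene. The core was found in 3 of the 8, Ifih1, Eif2ak2 and Myd88, and in 3.44% of all 32851 promoters. The windows holding it are given 5′ to 3′ on the coding strand with the core in capitals, because they set 2 genes that fell beside 1 that was not called. They lie, in this order and on the reverse strand, at chr2:62646206-62646235, chr17:78882535-78882564 and chr9:119340039-119340068.
Ifih1: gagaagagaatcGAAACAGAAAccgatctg
Eif2ak2: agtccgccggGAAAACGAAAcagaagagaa
Myd88: gagcttctcgGAAAGCGAAAgaaggagggg

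Counted from the annotated start, the core begins at 33 in Ifih1, at 19 in Eif2ak2 and at -40 in Myd88. The letters of the interferon gamma activated site, TTCNNNGAA, were found in Eif2ak2 and in Myd88, where they begin at -46 and overlap the core, and in 8.30% of all promoters. Those of an NF-kB site, GGGNNNNNCC, were found in 5 of the 8, Tbk1, Eif2ak2, Tlr3, Tlr2 and Ticam1, but also in 50.8% of all promoters. Neither interferon motif was found in Ticam1, Mavs, Tlr3 or Tlr2, which also fell. For Ticam1, the 120 bases before its start (chr17:56276768-56276887, reverse strand) are shown with its single NF-kB match in capitals.
Ticam1: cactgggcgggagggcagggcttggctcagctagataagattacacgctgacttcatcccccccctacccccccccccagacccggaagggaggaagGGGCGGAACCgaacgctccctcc
Both genes that fell and genes that were not called held each of the response element core and the NF-kB letters. These matches describe letters in a window and not bound sites.

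Among the cytosolic RNA sensors, Ifih1 and Dhx58 gave different results. Ifih1 (ENSMUSG00000026896, mm10 chr2:62595618-62646255, reverse strand) had 161, 148, 151 and 136 CPM in GapmeR 1 to 4 and 203 and 219 CPM in the controls. The GapmeR libraries did not reach the lower control, with GapmeR 1 the closest. The mean level fell to 149 ± 10.6 CPM (SD, n = 4) against 211 ± 11.2 CPM (SD, n = 2) in the controls, a log2 fold change of -0.50 (SE 0.08, edgeR adjusted p = 7.07e-05). Dhx58 (ENSMUSG00000017830, chr11:100694884-100704271, reverse strand) had 199.8, 175, 193 and 194 CPM after GapmeR treatment and 189 and 182 CPM in the controls. Both controls fell inside the range of the GapmeR libraries. Its log2 fold change was 0.04, with a 95% interval from -0.12 to 0.20 (edgeR adjusted p = 0.719).

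Mavs (ENSMUSG00000037523, chr2:131234063-131248025, forward strand) encodes the adaptor MAVS. It had 20.7, 18.4, 20.7 and 19.8 CPM in GapmeR 1 to 4 and 23.3 and 23.5 CPM in the controls. Its fall was the smallest of the 7, with a log2 fold change of -0.23 and a 95% interval from -0.42 to -0.05 (edgeR adjusted p = 0.0351). This call was lost in 8 of 14 alternative fits. The adjusted p-value was 0.0731 with DESeq2's Wald test, 0.427 with scaling by library size, 0.0786 without GapmeR 3 and GapmeR 4, 0.166 without Negative Control 1 and 0.217 without Negative Control 2 (the last 4 from edgeR).

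Tbk1 (ENSMUSG00000020115, chr10:121546455-121586794, reverse strand), the kinase on which MAVS and TRIF converge, had 81.9, 97.3, 78.5 and 94.5 CPM after GapmeR treatment and 85.1 and 91.1 CPM in the controls. The GapmeR libraries lay on both sides of the controls, at 88.0 ± 9.22 CPM (SD, n = 4) against 88.1 ± 4.19 CPM (SD, n = 2). The 95% interval of its log2 fold change ran from -0.19 to 0.19 (edgeR adjusted p = 0.996). Eif2ak2 (ENSMUSG00000024079, chr17:78850504-78882572, reverse strand) encodes PKR, which halts translation when it binds double-stranded RNA. It had 218, 215, 201 and 198 CPM in GapmeR 1 to 4 and 182 and 204 CPM in the controls, with overlap between the groups. Its log2 fold change was 0.11, with a 95% interval from -0.06 to 0.27 (edgeR adjusted p = 0.278). With scaling by library size, Eif2ak2 (log2 fold change 0.255, edgeR adjusted p = 0.0126) and Dhx58 (0.18, edgeR adjusted p = 0.0468) were called higher. In that fit 6106 of the 18234 genes tested were called higher.

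Tlr3 (ENSMUSG00000031639, chr8:45395665-45411075, reverse strand) had 65.3, 47.5, 55.3 and 47.9 CPM in GapmeR 1 to 4 and 89.1 and 99.0 CPM in the controls. The highest GapmeR library was below the lower control by more than the range of either group. The mean level fell to 54.0 ± 8.32 CPM (SD, n = 4) against 94.1 ± 7.01 CPM (SD, n = 2) in the controls, a log2 fold change of -0.80 (SE 0.11, edgeR adjusted p = 0.00014). Ticam1 (ENSMUSG00000047123, chr17:56269462-56276767, reverse strand), which encodes the TLR3 adaptor TRIF, had 16.6, 16.0, 19.3 and 16.3 CPM against 27.1 and 26.4 CPM. It fell to 17.1 ± 1.51 CPM (SD, n = 4) against 26.8 ± 0.523 CPM (SD, n = 2) in the controls, with log2 fold change -0.65 (SE 0.09, edgeR adjusted p = 2.92e-05). Without Negative Control 1, Ticam1 was at -0.61 and Myd88 at -0.64, so the order of these adaptors rests on that library.

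The cell surface receptors fell too, and their difference from Tlr3 was tested only in the ratio of Tlr3 to Tlr4. Tlr2 (ENSMUSG00000027995, chr3:83836272-83841824, reverse strand) had 12.5, 10.0, 12.1 and 11.7 CPM in GapmeR 1 to 4 and 14.6 and 17.4 CPM in the controls. Its log2 fold change was -0.47 (SE 0.11, edgeR adjusted p = 0.00302), and without Negative Control 2, the higher control, it was -0.31 and not called (edgeR adjusted p = 0.133). Tlr4 (ENSMUSG00000039005, chr4:66827551-66846581, forward strand) had 46.5, 43.9, 40.9 and 39.3 CPM against 56.2 and 56.0 CPM. The controls agreed within 1 CPM, and all GapmeR libraries lay below them, giving a log2 fold change of -0.40 (SE 0.08, edgeR adjusted p = 0.000684). Macrophages also express Tlr2 and Tlr4, and the macrophage marker sum was higher in the GapmeR libraries, most in GapmeR 3 and GapmeR 4. Without those 2 libraries the log2 fold changes were -0.49 for Tlr2 (edgeR adjusted p = 0.00376) and -0.29 for Tlr4 (edgeR adjusted p = 0.0119). The marker sum in GapmeR 1 and GapmeR 2 was still above both controls, so the part of macrophage markers was not tested by this fit.

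Myd88 (ENSMUSG00000032508, chr9:119335934-119340018, reverse strand), the adaptor of TLR2, TLR4 and the interleukin-1 receptor family, had 68.4, 62.8, 69.8 and 64.0 CPM in GapmeR 1 to 4 and 92.9 and 104.7 CPM in the controls. The GapmeR libraries lay close together and well below both controls. The mean level fell to 66.2 ± 3.39 CPM (SD, n = 4) against 98.8 ± 8.33 CPM (SD, n = 2) in the controls, a log2 fold change of -0.58 (SE 0.07, edgeR adjusted p = 1.17e-05). In the GENCODE annotation of GRCm39, 16.2% of its exon bases are shared with Acaa1a on the opposite strand, and the sources used here do not state whether reads were counted by strand. Acaa1a had 1764 to 2031 counts after GapmeR treatment and 1655 and 1756 in the controls, not scaled for library totals. The part of Acaa1a reads in the Myd88 values was not tested. Exon bases of Tlr3 (8.19%) and Dhx58 (4.18%) overlap antisense non-coding genes with at most 15 counts in a library. Further antisense overlaps of Mavs (5.33%), Dhx58 (3.88%), Eif2ak2 (3.39% and 0.865%), Tlr4 (3.35%) and Tbk1 (0.459%) are with genes whose counts were not analysed here.

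**Figure D2:**
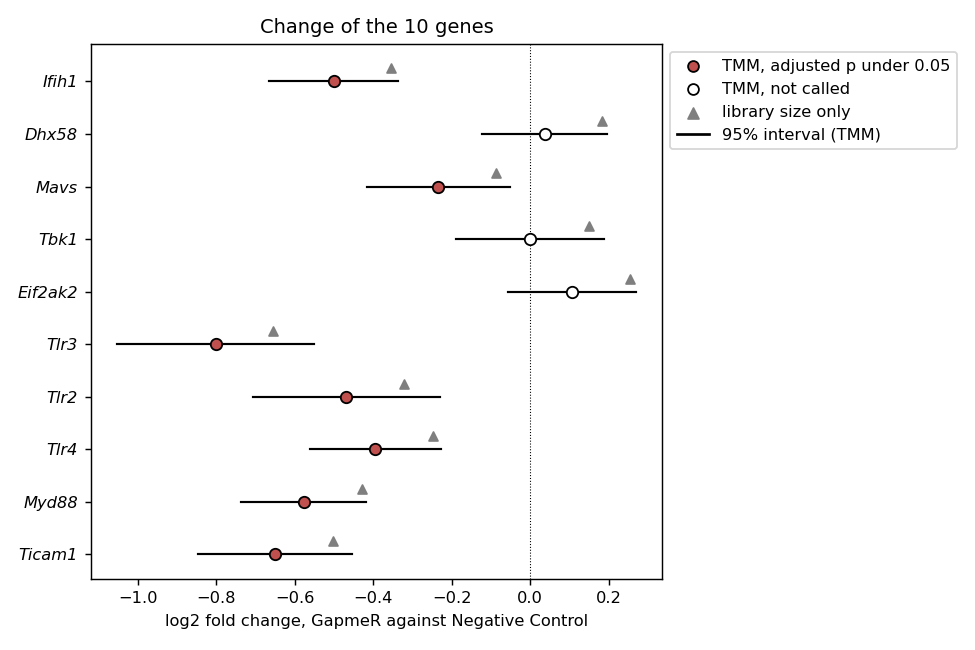
Log2 fold change (horizontal axis, GapmeR against Negative Control) of the 10 genes with TMM scaling (circles, filled where the adjusted p-value is under 0.05) and its 95% interval (lines), and with scaling by library size only (triangles). The circles of 7 genes are filled and lie between -0.80 and -0.23, and the triangles are shifted to the right for all 10.

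Since scaling moved the calls of Dhx58, Eif2ak2 and Mavs, the genes were also compared with each other inside each library. There library scaling cancels, but each ratio is relative to its denominator. The counts of every gene were divided by those of Dhx58, a denominator chosen after it was seen to lie near the control level with TMM scaling. The ratios are therefore no independent support for the calls and do not settle the choice of scaling. The Ifih1 to Dhx58 ratio was 0.807, 0.849, 0.784 and 0.700 in GapmeR 1 to 4 and 1.07 and 1.21 in the controls. The GapmeR libraries stayed below both controls. The Tlr3 to Dhx58 ratio was 0.327, 0.272, 0.287 and 0.247 against 0.471 and 0.546. For Mavs it was 0.103 to 0.107 against 0.123 and 0.130, again without overlap. The 7 genes called lower had ratios below both controls in all GapmeR libraries, as did 27.1% of all genes tested, and the ratios of Tbk1 and Eif2ak2 overlapped.

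In 2 further ratios, also chosen after the values were seen, Tlr3 was set against Tlr4 and Ticam1 against Myd88. The Tlr3 to Tlr4 ratio was 1.40, 1.08, 1.35 and 1.22 in GapmeR 1 to 4 against 1.59 and 1.77, without overlap. The Ticam1 to Myd88 ratio was 0.257 ± 0.0138 (SD, n = 4) against 0.272 ± 0.0282 (SD, n = 2), with overlap. In 2-sided exact permutation tests of these 11 ratios, those without overlap had p = 0.0667, the smallest possible, and 0.0917 after Benjamini-Hochberg adjustment.

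**Figure D3:**
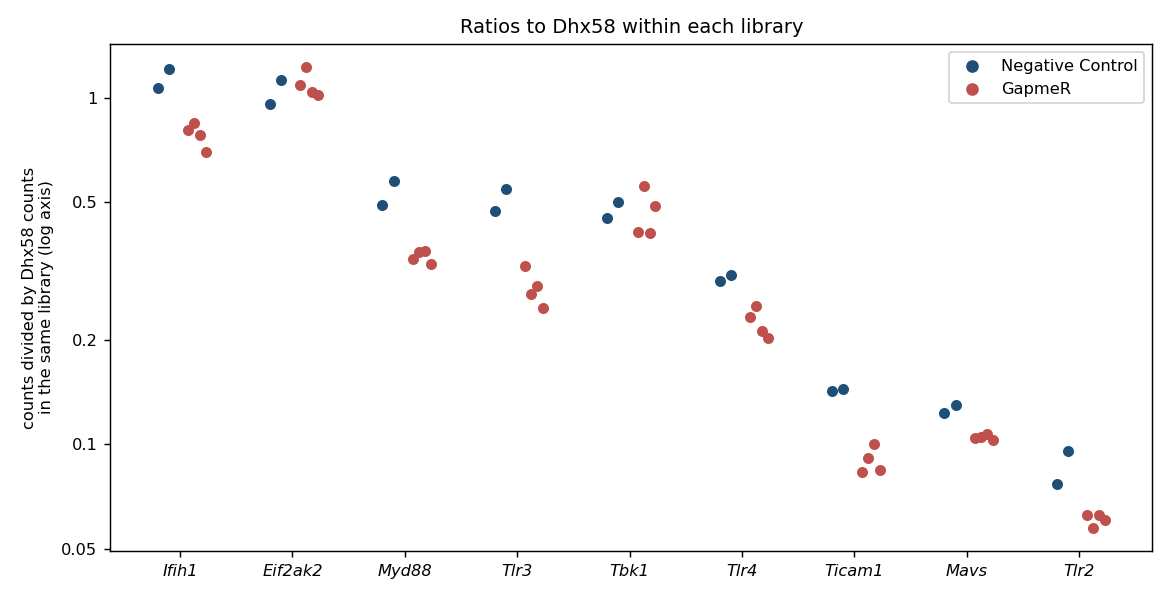
Counts of each gene divided by the counts of Dhx58 in the same library (vertical log axis) in the 2 Negative Control and 4 GapmeR libraries. The GapmeR points of Ifih1, Myd88, Tlr3, Tlr4, Ticam1, Mavs and Tlr2 lie below both controls, and those of Eif2ak2 and Tbk1 do not.

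To compare levels between genes, CPM were divided by the length of all annotated exons in kilobases (GENCODE, GRCm39). On this scale Dhx58 was highest in the controls at 55.0 ± 1.64 CPM per kb (SD, n = 2), followed by Eif2ak2 at 35.5 ± 2.89, Myd88 at 25.4 ± 2.14, Ifih1 at 23.5 ± 1.24, Tlr3 at 17.6 ± 1.31 and Tbk1 at 15.6 ± 0.740. Ticam1 at 8.94 ± 0.175 CPM per kb came next, then Tlr4 at 8.02 and 7.98 in the controls, and Tlr2 at 2.90 ± 0.359 and Mavs at 2.06 ± 0.0149 were lowest. Among these neighbors, only Myd88 and Ifih1 had overlapping controls. After GapmeR treatment Tlr3, at 10.1 ± 1.56 CPM per kb (SD, n = 4), lay below Tbk1, at 15.5 ± 1.63, without overlap. Myd88, Ifih1 and Tbk1 then overlapped, at 17.0 ± 0.871, 16.6 ± 1.18 and 15.5 ± 1.63 CPM per kb, as did Tlr4 and Ticam1, at 6.08 ± 0.458 and 5.70 ± 0.503. Mavs had the longest annotated exons of the 10 genes, at 11.4 kb.

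**Figure D4:**
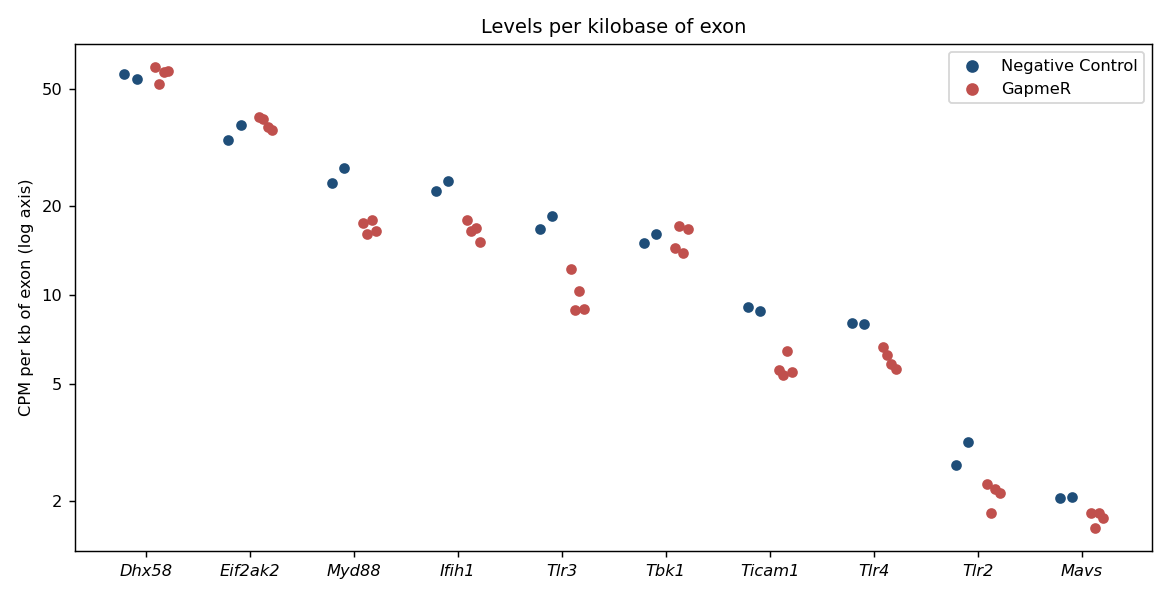
CPM per kilobase of annotated exon (vertical log axis) for the 10 genes, ordered by their control mean, in the 2 Negative Control and 4 GapmeR libraries. Levels run from 55.0 CPM per kb for Dhx58 to 2.06 for Mavs in the controls, and Tlr3 passes from above Tbk1 to below it.

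The surrounding pathways were described with 7 lists of other genes, 93 in the table and 87 tested. By edgeR, 36 were called lower and 13 higher, beside 20.0% lower and 25.4% higher over all genes. With scaling by library size 27 were lower and 21 higher, beside 2135 lower and 6106 higher of all 18234 genes tested. Without Negative Control 2 fewer were called in either direction, in the lists and over all genes. The 6 genes not tested, Trex1, Tlr5, Tlr9, Tlr11, Tlr12 and Tnf, had too few counts.

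Among 13 partners of the RIG-I-like receptors, 5 were lower and 3 higher, with a median log2 fold change of 0.014. Rnf135, which encodes the RIG-I ubiquitin ligase Riplet, fell to 62.9 ± 2.47 CPM (SD, n = 4) against 88.6 ± 4.32 CPM (SD, n = 2) in the controls, with log2 fold change -0.49 (edgeR adjusted p = 2.82e-05). The RIG-I gene itself, Ddx58, fell by 0.28 on the log2 scale (edgeR adjusted p = 0.00633), and Trim25, Otud5 and Pcbp2 also fell. These 4 were named after their values were seen. The helicase genes Ddx60 (log2 fold change 0.76) and Dhx9 (0.43) rose, as did Rnf125 (0.59), which encodes a ubiquitin ligase of RIG-I. Rnf125 was not called without Negative Control 1 (edgeR adjusted p = 0.127).

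In the TBK1 and IRF3 branch, 4 of 11 genes were lower and 2 higher, with a median log2 fold change of -0.12. Ikbke, which encodes the IKK epsilon kinase closely related to TBK1, had 7.91, 7.73, 7.67 and 9.26 CPM in GapmeR 1 to 4 and 3.72 and 3.54 CPM in the controls. It rose with a log2 fold change of 1.16 (SE 0.14, edgeR adjusted p = 6.56e-06), whereas Tbk1 was not called. The TBK1-binding protein genes Azi2 (-0.49) and Optn (-0.55) fell, and so did the transcription factor genes Irf7 (-0.61) and Irf3 (-0.25). Irf7 spread widely, at 1848, 1291, 1868 and 1337 CPM after GapmeR treatment against 2342 and 2483 CPM, and was not called without Negative Control 1 (edgeR adjusted p = 0.0504) or without Negative Control 2 (edgeR adjusted p = 0.0913). Traf3, named after its values were seen like Irf3, was the other gene that rose (0.30).

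Of 12 other double-stranded RNA effectors, 5 were lower and 1 higher, with a median log2 fold change of -0.28. Zbp1, a sensor of Z-form nucleic acid, had 99.8, 68.9, 95.7 and 74.8 CPM in GapmeR 1 to 4 against 247 and 277 CPM in the controls, the largest fall of these lists (log2 fold change -1.63, SE 0.14, edgeR adjusted p = 2e-05). Among oligoadenylate synthetases, Oas3 (-0.67) and Oas1a (-0.52) fell and Oas1b rose (0.94, edgeR adjusted p = 6.55e-08). The Oas1 genes are similar in sequence, so reads could have been split among them. Adar and Oasl2, named after their values were seen, were the other lower genes. In cytosolic DNA sensing, 4 of 9 genes were lower and 2 higher, with a median of -0.175. Ifi203 (-0.97), Tmem173, which encodes STING (-0.73), Samhd1 (-0.63) and Aim2 (-0.49) fell. Ifi203 belongs to a family of similar genes, and Aim2 was not called without Negative Control 2 (edgeR adjusted p = 0.0606). The cGAS gene, listed as Mb21d1, rose (0.45), as did Dhx36, both named after their values were seen.

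Of 13 other Toll-like receptors and accessory proteins tested, 4 were lower and 1 higher, with a median of 0.16. Tlr13, a receptor for bacterial ribosomal RNA, had 8.85, 7.86, 10.2 and 8.85 CPM in GapmeR 1 to 4 and 18.9 and 23.8 CPM in the controls (log2 fold change -1.26, SE 0.12, edgeR adjusted p = 2.98e-07). The chaperones of Toll-like receptors Hsp90b1 (-0.39) and Cnpy3 (-0.42) also fell. The fourth, named after its values were seen, was Ly96, which encodes the TLR4 partner MD-2 and had 103 to 165 counts against 125 and 204. Tlr1 was the gene called higher, on 3 to 6 counts in GapmeR libraries and 0 in both controls. Tlr6, Tlr7 and Tlr8 were not called, at under 2 CPM in every library.

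Of 18 other adaptors and kinases of Toll-like receptors, 7 were lower and 2 higher, with a median of -0.10. Irak4, which encodes the first kinase recruited by MyD88, fell to 16.1 ± 1.04 CPM (SD, n = 4) against 24.6 ± 1.64 CPM (SD, n = 2) in the controls, with log2 fold change -0.62 (edgeR adjusted p = 4.51e-05). The ubiquitin ligase gene Peli1 (-0.70) and the inhibitory receptor gene Sigirr (-0.45) fell as well. Tab1, whose product activates the kinase TAK1, rose to 19.7 ± 1.68 CPM (SD, n = 4) against 11.6 ± 0.923 CPM (SD, n = 2) in the controls, with log2 fold change 0.77. The other gene that rose was Peli2, named after its values were seen, at under 1 CPM in every library.

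Among 12 products of these pathways, 11 were tested, of which 7 were lower and 2 higher, with a median of -0.50. The list was chosen with earlier results of these data known. Cxcl10 (-1.29), Il6 (-1.10) and Rsad2 (-0.97) fell. Ifnb1, which encodes interferon beta, moved the other way, with 259, 360, 200 and 264 counts in GapmeR 1 to 4 against 74 and 114 in the controls. Its level rose to 7.88 ± 1.16 CPM (SD, n = 4) against 3.14 ± 0.616 CPM (SD, n = 2) in the controls, with log2 fold change 1.32 (SE 0.17, edgeR adjusted p = 1.41e-05). The other gene that rose was Tnfaip3, named after its values were seen.

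**Figure D5:**
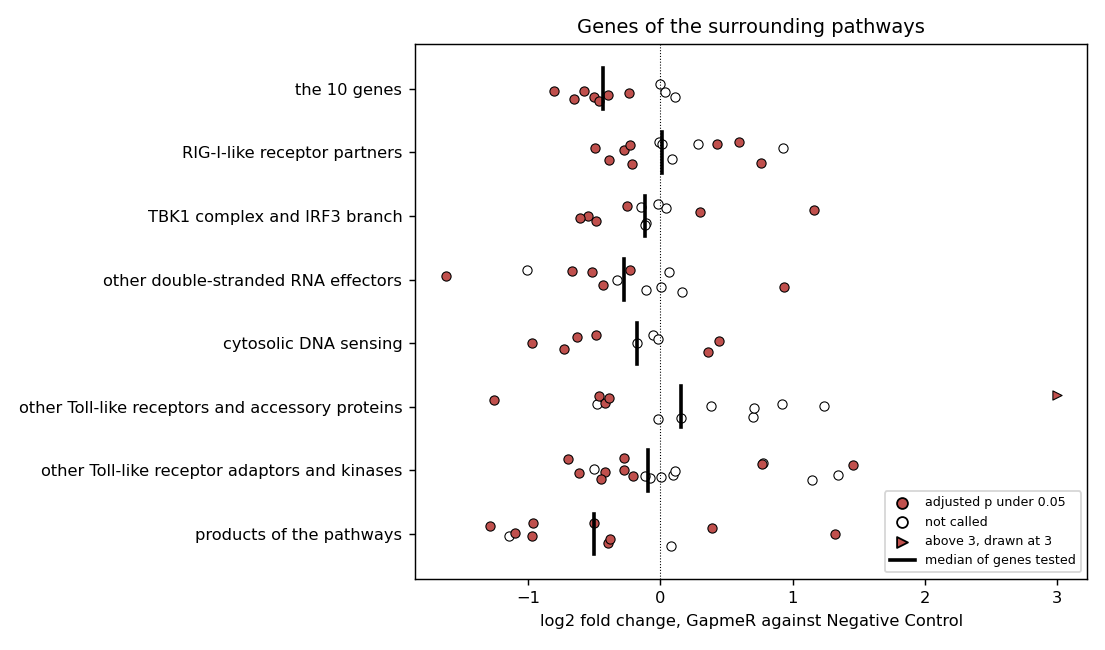
Log2 fold change (horizontal axis, GapmeR against Negative Control) of the genes tested in the 7 lists and of the 10 genes, 1 point a gene, filled where the adjusted p-value is under 0.05, with the median of each list as a bar and Tlr1, above 3, drawn as a triangle at 3. The 10 genes have a median of -0.43 with no filled point above 0, and the products of the pathways have a median of -0.50. Each of the 7 lists has filled points on both sides. The other double-stranded RNA effectors have 1 above 0, and the other Toll-like receptors and accessory proteins have only Tlr1.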

How the data were processed

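Ribodepleted RNA of bEND.3 cells was sequenced as paired reads. Per the labels, the submitters' processing notes list Trimmomatic 0.36, STAR 2.5.2b and Subread 1.5.2 with mm10, and the authors deposited whole-number read counts per Ensembl gene, without normalization. The strand setting and Ensembl release are not given in the sources used here. Groups came from sample titles. Counts of 1 more column, named like the controls but matching no labelled sample, were not used. The study's text gives 4 samples for each group, and all tests here rest on 2 controls.

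Genes reaching 5 counts in 2 or more of the 6 libraries were tested by the quasi-likelihood F-test of edgeR 4.0.16 (R 4.3.3) after TMM scaling, with p-values adjusted over all of them (Benjamini-Hochberg). The standard error is the log2 fold change divided by the square root of F, and SDs are between libraries. The depth limit of 3 counts was 0.0808 to 0.103 CPM and covers counting error only. Libraries of a group differed beyond counting noise (chi-square per degree of freedom 5.87 or more), so none was merged as a repeat deposit, which does not show separate cultures. The members, lists and tests were chosen with earlier results of these data known. Named genes were the members and up to 4 genes a list with the largest called change, a mean of at least 1 CPM and no overlap. Alternatives were other scalings, DESeq2 1.42.0, limma-voom (limma 3.58.1), other filters, the replicate block and leaving out libraries. Functions were tested on simulated data. Promoter sequences and mm10 coordinates are from RefSeq (GRCm38.p6).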

Additional observations from a re-analysis of the deposited data

How the results depend on the processing

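The log2 fold changes of Ifih1, Tlr3, Tlr4, Myd88 and Ticam1 kept their direction and their call in all 14 alternative fits, and Tlr2 in 13. With scaling by library size only, 2 of the 10 genes were called higher, Dhx58 at 0.184 and Eif2ak2 at 0.255, 6 were lower, and Mavs was at -0.087. In that fit 2135 of the 18234 genes tested were lower and 6106 higher, and 21 genes of the lists were higher. Mavs was also not called with DESeq2's Wald test (-0.23), with at least 10 counts in every library (-0.188) or without GapmeR 3 and GapmeR 4 (-0.239), and with each library left out its value was -0.252 to -0.196. Tbk1, near 0, changed sign to 0.003 with DESeq2's size factors and with its Wald test, and to 0.149 with library size. It was at 0.047 with the stricter filter and without GapmeR 3 and GapmeR 4. With each library left out it lay on both sides of 0, at -0.05 to 0.071. With the 1.5-fold threshold, 2 of the 10 genes, 4628 genes in all and 1390 lower genes remained.

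With each library left out, 5 to 7 of the 10 genes were lower, Tlr2 was at -0.57 to -0.313, 5232 to 8719 genes of the table were called, 1930 to 3949 of them lower, and 23 to 38 genes of the lists were lower. Fits without a control leave 1 control, which is assumed to vary like the GapmeR libraries, and the lowest counts came without Negative Control 2. With the replicate number as a block, which leaves 1 residual degree of freedom, 7 of the 10 genes were lower and 7962 genes were called in all, and Tbk1 was at 0.021. Nothing in the labels says that a number marks a shared culture, and deviations of same-numbered libraries correlated at -0.114 and 0.18. The cause of these changes was not tested.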

Other observations

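Several genes of these pathways had lower values in GapmeR 2 and GapmeR 4 than in GapmeR 1 and GapmeR 3, which was noticed after the values were seen and not tested. Oas3 had 247, 171, 246 and 200.2 CPM in GapmeR 1 to 4, Cxcl10 had 103, 73.9, 94.0 and 75.0 CPM, and Rsad2 had 1445, 1106, 1355 and 1088 CPM. Tlr3, with 65.3, 47.5, 55.3 and 47.9 CPM, had the same order, whereas Tbk1, with 81.9, 97.3, 78.5 and 94.5 CPM, and Ddx60, with 65.2, 80.5, 55.5 and 78.7 CPM, had the opposite order.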
